A study of Rattus norvegicus with 6 samples.

Results

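The genes described here are 10 members of the Notch pathway, Notch1, Notch4, Dll1, Dll4, Jag1, Jag2, Hey1, Hey2, Hes1 and Rbpj, measured by RNA-seq in primary rat brain microvascular endothelial cells (rBMECs). They were chosen by name from the 33566 genes of the deposited count table, where each name matched 1 gene, and all 10 passed the filter on low counts (at least 10 counts summed over the 6 libraries), as did 14603 genes in all. Such cells make up the wall of brain capillaries and with it the blood–brain barrier, and these came from SD rats 18 to 22 days old and were passaged once before use. In the Hcy group, 3 libraries came from cells given homocysteine (Hcy), an amino acid of methionine metabolism, for 24 h, and in the Veh group 3 libraries came from cells given the sterile water in which Hcy was dissolved. The label of each Hcy library gives 100 μM, while the treatment text also names a prepared solution of 50 μmol/L, so the dose is given here as labelled. No source used here says whether the 3 libraries of a group came from separate isolations. The p-values rate the difference between the groups against the spread between these libraries, estimated with information from all genes tested. That spread may be technical. The comparison asks how these genes differed between cells exposed to Hcy and cells given vehicle.

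Notch receptors are cell-surface proteins that are switched on by ligands on a neighbouring cell. Ligand binding exposes the receptor to cleavage by ADAM proteases and then by gamma-secretase, and the freed intracellular domain enters the nucleus, where it binds RBPJ and turns on genes of the Hes and Hey families. In growing vessels, DLL4 on a tip cell activates Notch in its neighbours and holds back their sprouting, JAG1 can oppose DLL4 there, and Notch activity favours arterial over venous identity.

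Of the 10 genes, Jag1 alone passed the test (adjusted p of at most 0.05 in edgeR's quasi-likelihood test), and it was lower in Hcy by 0.44 ± 0.09 (SE) on the log2 scale, from 527 ± 63.8 to 387 ± 6.66 CPM (counts scaled to library size, SD, n = 3). Dll4, Notch4 and Jag2 had values in all 3 Hcy libraries above those in all 3 Veh libraries, with log2 differences of 0.50, 0.28 and 0.25 that did not pass. The targets Hes1, Hey1 and Hey2 had log2 differences of 0.20, 0.85 and 1.15, none of which passed. None of the 10 met the study's criteria for differential expression, which join an adjusted p of at most 0.05 to a log2 difference of 1 or more in either direction. By those criteria, 71 genes were called in edgeR, 0.486% of the genes tested, and 100 in DESeq2. The paper, which used DESeq2, reports more genes than either at the same thresholds. The count of the 10 was also 0 with DESeq2 and with an unadjusted p in edgeR. On adjusted p alone, DESeq2 passed Dll4 and Jag1, and 4.14% of all genes tested. Over all genes tested, 2.34% had an adjusted p of at most 0.05, and 1.01% had one with a lower level in Hcy, where Jag1 belongs. The groups did not overlap for 5 of the 10 genes, against 20.1% of all genes tested. Of these 5, 4 were higher in Hcy, against 10.8% of all genes, and 1 was lower, against 9.27%. The median log2 fold change was 0.22 over the 10 genes and -0.02 over all genes tested.

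The libraries held 14024997 to 16764584 counts, so that 3 counts, taken as the floor of detection, were worth 0.178 to 0.215 CPM, a limit that covers counting error only. On the second principal component, which held 26.2% of the variance, Veh replicate 3 lay at 30.4 and the other Veh libraries at -16.0 and -19.0. Veh replicate 3 was also the lowest of the 3 Veh libraries for 9 of the 10 genes, all except Hey2, against 38.5% of all genes tested. This share was 69.2% among the 2794 genes with a listed length of at least 4 kb, a limit chosen after the values were seen, and 31.2% among shorter genes. The labelled cell type was checked against markers. The summed level of 12 endothelial markers was 8983 to 9456 CPM in Hcy and 7439 to 8803 CPM in Veh, with Cdh5 (VE-cadherin) at 1535 to 2039 CPM, whereas Cldn5, the main claudin of the blood–brain barrier, was listed at 0 counts in every library, which is not read here as absence of its transcript. Of the 11 endothelial markers tested, 4 (Vwf, Kdr, Flt1 and Tie1) were higher in every Hcy library, against 10.8% of all genes tested. Another 3 (Slc2a1, Tek and Mfsd2a) were lower in every Hcy library, against 9.27%. None passed the test in edgeR, against 2.34% of all genes tested. At an unadjusted p there were 3 in each direction, against 13.4% of all genes in both directions together. Vwf and Slc2a1 passed the test in DESeq2, against 4.14%. Without Vwf the sums overlapped, at 6125 to 6453 CPM in Hcy and 5463 to 6270.2 CPM in Veh. Pecam1 was not matched by that name and was not analysed here. The sum of 10 mural cell markers was 674 to 699.8 CPM in Hcy and 1103 to 1330.0 CPM in Veh. It was carried by the contractile genes Tagln, which fell by 0.88 (adjusted p = 0.000801), and Acta2, which fell by 0.64 (adjusted p = 0.0248), while the other 8 markers together gave 6.03 to 9.40 CPM in Hcy and 4.84 to 6.30 CPM in Veh. These 8 had low counts and differed in direction, and none passed in edgeR (adjusted p of at least 0.188, and 1, Cspg4, at an unadjusted p) or in DESeq2. Of the pericyte markers among them, Cspg4 (log2 fold change 1.66) and Rgs5 (1.26) were higher in every Hcy library, Kcnj8 (-0.99) was lower in every Hcy library, and Pdgfrb (0.73) and Abcc9 (0.87) overlapped. The sum of the 4 fibroblast markers matched was 35.7 to 57.8 CPM in Hcy and 57.5 to 83.9 CPM in Veh, with Col1a1 lower in every Hcy library (34.2 to 55.6 CPM) than in any Veh library (55.8 to 81.9 CPM). The summed levels in Hcy and in Veh were 10.6 to 12.4 and 11.3 CPM for oligodendrocyte markers, 6.85 to 9.77 and 5.22 to 7.18 CPM for neuron markers, and at most 2.66 CPM in any library for microglia and macrophage, astrocyte and epithelial markers, with Gfap at 0 to 4 counts, Epcam at 0 to 1 and Ptprc at 0. None of these markers passed, with edgeR or DESeq2, and 1 (Syt1, a neuron marker, 0.85) had an unadjusted p of at most 0.05. In bulk RNA, fewer cells of a type and less RNA per cell cannot be told apart.

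Levels of different genes were compared per length, as CPM per kilobase of the gene length in the deposited table. In Veh, the ligand Jag1 was the highest of the 10 at 94.5 ± 11.5 CPM per kb (SD, n = 3), followed by the receptor Notch4, which is largely restricted to endothelium, at 47.2 ± 5.19. Jag2 (18.5 ± 1.56), Rbpj (17.4 ± 2.86), Dll4 (17.2 ± 2.20) and Hes1 (14.7 ± 1.33) came next, and in this run each neighbour overlapped the next. Notch1 stood at 10.2 ± 1.83 and Hey1 at 0.821 ± 0.349. Dll1 and Hey2 closed the order at 0.200 ± 0.0502 and 0.103 ± 0.00785 CPM per kb. In Hcy, Jag1 (69.5 ± 1.19) and Notch4 (57.3 ± 0.651) again led, and Dll4 came next at 24.3 ± 2.52, overlapping Jag2 at 22.0 ± 0.725. Below them, Hes1 (16.8 ± 1.41), Rbpj (14.2 ± 0.648), Notch1 (10.5 ± 0.395) and Hey1 (1.50 ± 0.0672) did not overlap their neighbours in the order. Hey2 (0.229 ± 0.138) and Dll1 (0.189 ± 0.0872) overlapped each other. Dll4 thus held rank 5 in Veh and rank 3 in Hcy, and Rbpj rank 4 in Veh and rank 6 in Hcy.

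**Figure D1:**
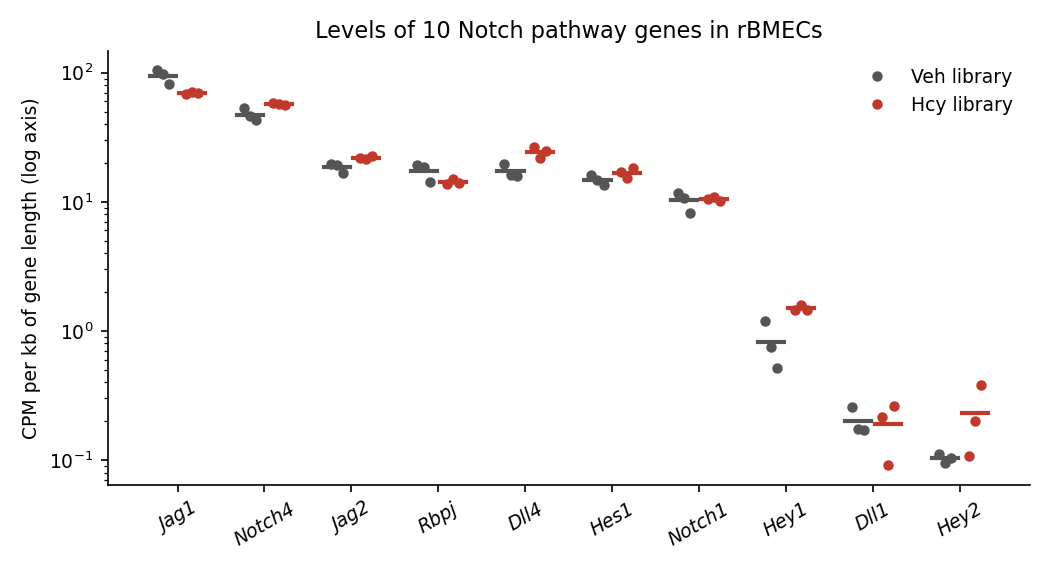
Level of each of the 10 genes in each library, in CPM per kb of gene length on a log axis, with grey points for the 3 Veh and red points for the 3 Hcy libraries, from replicate 1 on the left to replicate 3 on the right, and a line at the group mean. Jag1 and Notch4 stand at the top in both groups, and Hey1, Dll1 and Hey2 lie far below the other 7 genes.

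Among the ligands, Jag1 (ENSRNOG00000007443, minus strand of chromosome 3, 130079361 to 130114770 in the positions of the deposited table, which names no genome build) had 382, 395 and 386 CPM in Hcy replicates 1, 2 and 3. In Veh replicates 1, 2 and 3 it had 579.5, 545 and 456 CPM. The Hcy libraries lay close together and below every Veh library, of which Veh replicate 3 was nearest to them. Jag1 was 1.36-fold higher in Veh than in Hcy (log2 fold change -0.44, SE 0.09, adjusted p = 0.0418), and by p it ranked 306th of the 14603 genes. The call sat near the threshold. The adjusted p was 0.000698 with DESeq2 and 0.0564 with library totals as the only scaling. It was 0.137 to 0.203 without Veh replicate 1, without Veh replicate 2 or without any 1 of the Hcy libraries, and 0.000353 without Veh replicate 3, while the log2 fold change stayed between -0.54 and -0.37. Tagln and Acta2, which carry the mural marker sum given above, were also lower in every Hcy library, as was the fibroblast marker Col1a1 (log2 fold change -0.52, SE 0.19, adjusted p = 0.264), the pericyte markers differed in direction, and their part in the level of Jag1 was not tested.

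Dll4 (ENSRNOG00000014011, plus strand of chromosome 3, 111135021 to 111145986), the delta-like ligand of tip cells and arteries, had 122, 98.8 and 112 CPM in Hcy replicates 1 to 3 and 90.2, 73.2 and 72.4 CPM in Veh replicates 1 to 3. All 3 Hcy libraries were above all 3 Veh libraries, and the lowest Hcy and the highest Veh library were 98.8 and 90.2 CPM. The log2 fold change was 0.50 (SE 0.11), 1.41-fold, with an adjusted p of 0.0597, which did not pass. It passed with DESeq2 (adjusted p = 0.00202), with no filter on low counts (0.0182), without Veh replicate 1 (0.0477) and without Veh replicate 3 (0.0357). Dll4 also passed with a replicate block (0.0290), though the replicate numbers were not taken as pairs. With another library left out, the adjusted p was 0.0882 to 0.238.

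Jag2, the second jagged ligand, had 99.3, 96.6 and 103 CPM in Hcy and 88.7, 87.0 and 75.7 CPM in Veh, in the order of the replicates. Its groups did not overlap, yet the log2 fold change of 0.25 (SE 0.08) did not pass (adjusted p = 0.203). Dll1 was near the floor. Its counts were 11, 5 and 16 for Hcy replicates 1 to 3 and 16, 10 and 9 for Veh replicates 1 to 3, and its log2 fold change of -0.09 had an SE of 0.47 (adjusted p = 0.964). Dll3, the remaining mammalian ligand of the delta family, had 0 counts in all 6 libraries.

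The make-up of the ligand transcripts differed between the groups in every library. Per length, Jag1 was 58.4, 62.2 and 59.2% of the ligand transcripts in Hcy replicates 1 to 3 and 72.4, 73.4 and 71.4% in Veh replicates 1 to 3. Dll4 was 22.7, 19.0 and 21.1% in Hcy and 13.8, 12.1 and 13.9% in Veh. Jag2 was 19.0% ± 0.445 in Hcy and 14.2% ± 0.505 in Veh (SD, n = 3), and Dll1 was at most 0.222% in any library. The ratio of Dll4 to Jag1, both per length and within one library and hence independent of the scaling between libraries, was 0.390, 0.306 and 0.356 in Hcy and 0.190, 0.164 and 0.194 in Veh, a 1.92-fold difference of the means. For this ratio Veh replicate 3 was the highest of the Veh libraries, unlike its place for the single genes. The ratio of Jag2 to Jag1 was 0.317 ± 0.0142 in Hcy and 0.196 ± 0.00800 in Veh, 1.61-fold. The ratio of Dll4 to Jag2 was 1.10 ± 0.102 in Hcy and 0.932 ± 0.0880 in Veh, with 1.02 as the lowest Hcy value and 1.01 as the highest Veh value. These shares and ratios were chosen with the levels known and are given as a description, with no test.

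**Figure D2:**
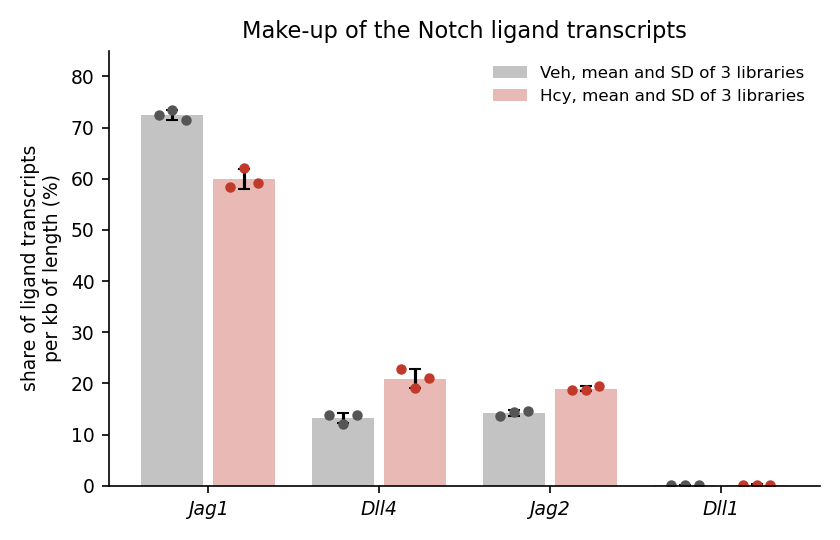
Share of each ligand among the ligand transcripts per kb of length, in percent, in the Veh (grey) and Hcy (red) groups, with bars at the mean, error bars for the SD of 3 libraries and points for single libraries. Jag1 makes up 72.4% of the ligand transcripts in Veh and 59.9% in Hcy, and the points of the groups do not overlap for Jag1, Dll4 or Jag2.

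Among the receptors, Notch4 (ENSRNOG00000000442, plus strand of chromosome 20, 4329811 to 4353785) had 374, 371 and 366 CPM in Hcy and 342, 298 and 276 CPM in Veh. The Hcy libraries spanned under 9 CPM and lay above all 3 Veh libraries. The log2 fold change was 0.28 (SE 0.08) with an adjusted p of 0.167, which did not pass, and 0.0692 with DESeq2. The endothelial marker sum was also higher in every Hcy library, at least 8983 CPM against at most 8803 CPM in Veh, though not without Vwf, and its part in the levels of Notch4, Dll4 and Jag2 was not tested. A locus on the other strand overlaps Notch4 in the deposited positions, and it held 29 counts over the 6 libraries. Notch1, the receptor required for vessel development, had 100.5, 104 and 96.1 CPM in Hcy and 112, 102 and 78.1 CPM in Veh. Its groups overlapped, and its log2 fold change was 0.04 (SE 0.12, adjusted p = 0.943), or -0.10 without Veh replicate 3. Notch2 and Notch3, which are better known from smooth muscle cells and pericytes, were low, at 2.75 to 5.10 and 0.510 to 1.01 CPM, and neither passed (adjusted p = 0.821 and 0.705). Per length, Notch4 was 84.0% ± 0.541 of the receptor transcripts in Hcy and 81.6% ± 1.48 in Veh, and Notch1 was 15.4% ± 0.388 and 17.6% ± 1.41 (SD, n = 3).

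Between receptor and nucleus, the proteases Adam10 and Adam17, which make the first cut, had log2 fold changes of 0.09 (SE 0.11) and 0.11 (SE 0.08), neither of which passed (adjusted p = 0.801 and 0.632). The fringe enzymes, which add sugars to the receptor and so tune its response to delta-like and jagged ligands, did not pass either. Lfng was at 15.8 ± 0.690 CPM in Hcy and 18.6 ± 2.63 in Veh, and Mfng was at 183 ± 10.3 and 168 ± 12.3 (adjusted p = 0.495 and 0.601). Rbpj, the DNA-binding partner of the Notch intracellular domain, had 59.0, 64.1 and 59.6 CPM in Hcy and 83.0, 80.0 and 60.5 CPM in Veh. Veh replicate 3 lay within the range of the Hcy libraries, and the other Veh libraries lay above it. The log2 fold change of Rbpj was -0.29 (SE 0.12, adjusted p = 0.319), and without Veh replicate 3 it was -0.42 with an adjusted p of 0.00542. Maml1, the coactivator that joins the complex of RBPJ and Notch, was at 21.7 ± 0.346 CPM in Hcy and 22.3 ± 4.21 in Veh (adjusted p = 0.943).

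Of the targets, Hes1, a transcriptional repressor, had 24.6, 22.2 and 26.2 CPM in Hcy and 23.1, 21.3 and 19.3 CPM in Veh. Its groups overlapped (log2 fold change 0.20, SE 0.11, adjusted p = 0.517). Hey1, a repressor tied to arterial fate, was counted 19, 22 and 23 times in the Hcy libraries and 19, 11 and 7 times in the Veh libraries, or 1.36, 1.48 and 1.37 CPM against 1.13, 0.701 and 0.484 CPM. The CPM values did not overlap, and the log2 fold change of 0.85 had an SE of 0.37 (adjusted p = 0.367). Hey2, its relative, was counted 4, 8 and 17 times in the Hcy libraries and 5, 4 and 4 times in the Veh libraries. Hcy replicate 3 held more of its counts than the other Hcy libraries together, and the log2 fold change of 1.15 (SE 0.58, adjusted p = 0.461) was 0.57 without that library. Heyl had at most 1 count in a library, and Hes5 had none. Nrarp, a target that feeds back on the pathway, was at 217, 182 and 199 CPM in Hcy and 182, 174 and 168 CPM in Veh. Its log2 fold change was 0.19 (SE 0.08, adjusted p = 0.344).

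**Figure D3:**
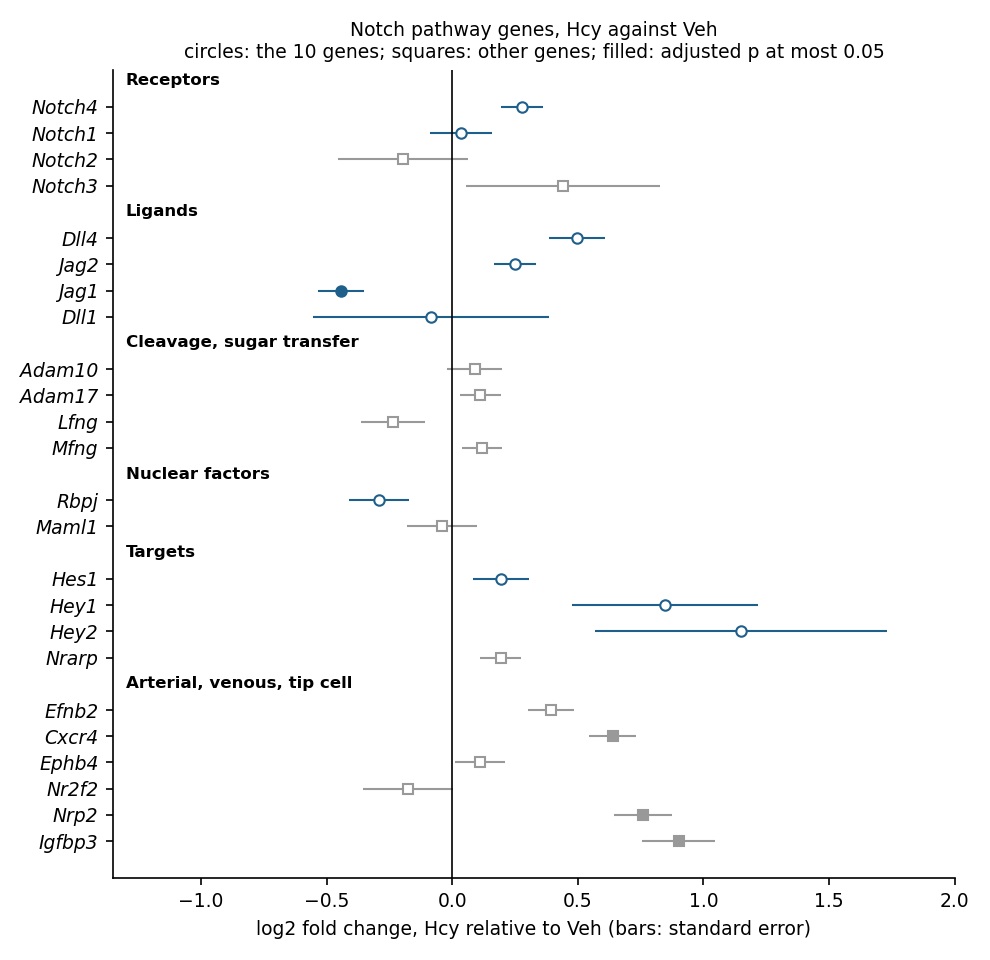
Log2 fold change of Hcy relative to Veh with its standard error for the 10 genes (circles) and other named genes of the pathway and of arterial, venous and tip cells (squares), with filled symbols where the adjusted p was at most 0.05. Jag1 at -0.44 is the single filled circle, and Cxcr4, Nrp2 and Igfbp3 are the filled squares.

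The promoter windows of the genes were searched for the letters that RBPJ and the Hes and Hey proteins are known to bind, because these proteins connect the 10 genes. RefSeq windows of GRCr8, from 250 bases before to 50 bases after each start, were matched by symbol for 8 of the 10 genes, in 10 windows, the exceptions being Dll4 and Hey1. Both strands were searched. For RBPJ the letters were GTGGGAA, called the full match here, and the shorter core TGGGAA within it, so that every full match also counts as a core match. For the Hes and Hey proteins they were the E-box, spelled CACGTG, the C site, which differs from it in a single base and is spelled CACGCG, and the N-box, spelled CACNAG. The core was found for 5 of the 8 genes and in 25.7% of all 33469 windows. All of Notch4, Dll1, Hey2, Hes1 and Rbpj had a window with 2 core matches or more, which 3.85% of all windows had. Notch1, Jag1 and Jag2 had no core match. Jag2 and Rbpj had 2 windows each, and a gene was counted if either window matched, whereas the shares are of single windows. The window matched to Notch4 lies on the minus strand of GRCr8, while the deposited positions put Notch4 on the plus strand. The full match was found in Dll1, Hey2 and Hes1, and in 6.29% of all windows. The C site was found in Jag1, Jag2 and Hes1, and in 8.50% of all windows. The N-box was found in Notch1, Notch4 and Hes1, and in 43.1% of all windows. The E-box was found in none of the 8 genes and in 6.42% of all windows. A match is a description of the letters and not a site shown to be bound, and letters that are not in a window say nothing of the factor.

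Windows of 3 genes are shown up to the start of the gene, 5′ to 3′ on the strand of the gene, those of Hes1 and Hey2 as the targets with a full match and a second core match, and that of Jag1 as the gene that passed the test. Capitals mark TGGGAA on either strand, so that a match on the opposite strand reads TTCCCA. Hes1 lies at chr11:84213046-84213295 (minus strand), Hey2 at chr1:28640850-28641099 (plus strand) and Jag1 at chr3:144894884-144895133 (minus strand) of GRCr8.
Hes1: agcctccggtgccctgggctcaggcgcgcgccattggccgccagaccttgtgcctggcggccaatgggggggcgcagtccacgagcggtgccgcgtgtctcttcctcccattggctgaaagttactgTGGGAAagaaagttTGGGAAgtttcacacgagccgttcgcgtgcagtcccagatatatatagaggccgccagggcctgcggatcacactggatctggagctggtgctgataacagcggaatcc
Hey2: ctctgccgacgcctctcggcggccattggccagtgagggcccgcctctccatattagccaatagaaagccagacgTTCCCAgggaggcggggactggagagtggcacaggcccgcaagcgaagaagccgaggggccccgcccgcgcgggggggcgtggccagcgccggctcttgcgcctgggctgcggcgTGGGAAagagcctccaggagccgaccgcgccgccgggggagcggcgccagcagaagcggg
Jag1: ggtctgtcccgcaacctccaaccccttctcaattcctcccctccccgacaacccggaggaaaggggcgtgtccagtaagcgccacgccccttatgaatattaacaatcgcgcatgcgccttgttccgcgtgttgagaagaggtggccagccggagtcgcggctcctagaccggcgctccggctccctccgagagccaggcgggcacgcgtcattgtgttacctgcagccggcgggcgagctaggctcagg
In Hes1 the matches begin 123 and 109 bases before the start, on the same strand, and in Hey2 they begin 175 and 60 bases before it, on opposite strands. Jag1 has no capitals, and its C site matches begin 125 and 47 bases before the start.

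The other genes of the pathway came from lists of receptors, ligands and ligand-like proteins, ligand endocytosis, receptor glycosylation and cleavage, the nuclear complex, corepressors, targets, and inhibitors and turnover. Of 67 such genes, 65 were matched by name and 56 passed the filter on low counts. None of the 56 passed the test in either direction, with edgeR (against 2.34% of all genes tested) or with DESeq2 (against 4.14%). At an unadjusted p of at most 0.05 in edgeR there were 6, against 13.4% of all genes tested. Higher in Hcy were Hes2 (log2 fold change 0.63, SE 0.18), Neurl1b, a ubiquitin ligase that acts on ligands (1.88, SE 0.70, at 1 to 35 counts), and Nrarp. Lower in Hcy were Hes6 (-0.34, SE 0.12), the gamma-secretase subunit Aph1b (-0.35, SE 0.12) and the ubiquitin ligase Dtx3l (-0.43, SE 0.16). In 5 of the 56 genes every Hcy library was above every Veh library, against 10.8% of all genes tested. In 4 every Hcy library was below, against 9.27%. Of the 56 log2 fold changes, 25 were above 0 and 31 below, with a median of -0.01.

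Genes of arterial, venous and tip cells were listed as well, because Notch activity bears on all of these identities. Of the 23 genes, 22 were tested, and 3 rose and none fell, against 1.32% of all genes tested that rose. Cxcr4, a chemokine receptor of sprouting and arterial endothelium, rose from 77.1 ± 8.77 to 120.0 ± 6.00 CPM (log2 fold change 0.64, SE 0.09, adjusted p = 0.0120). Nrp2, a receptor for VEGF and semaphorins found in venous and lymphatic endothelium, rose from 38.2 ± 5.62 to 64.7 ± 4.98 CPM (0.76, SE 0.12, adjusted p = 0.0128). Igfbp3, a binding protein for insulin-like growth factors listed with the tip cell genes, rose from 6.87 ± 0.771 to 12.8 ± 1.30 CPM (0.90, SE 0.15, adjusted p = 0.0150). The adjusted p of each was above 0.05 without Hcy replicate 1 or without Hcy replicate 2 (0.0516 to 0.0762), those of Cxcr4 and Igfbp3 also without Hcy replicate 3 or without Veh replicate 2 (0.0524 to 0.0919), and every log2 fold change stayed above 0.57. With DESeq2, 7 of the 22 genes passed, against 4.14% of all genes tested, and without Veh replicate 3, 8 of them passed, against 6.67% of all genes tested in that fit. Efnb2, the arterial ephrin, had 53.3, 52.7 and 54.4 CPM in Hcy and 43.0, 43.6 and 35.4 CPM in Veh, and its log2 fold change of 0.39 (SE 0.09) had an adjusted p of 0.0711, or 0.0194 with DESeq2. Its venous receptor Ephb4 was at 135 ± 2.22 and 125 ± 16.7 CPM (adjusted p = 0.707), and Nr2f2, which specifies venous identity, was at 13.2 ± 1.34 and 14.9 ± 3.50 CPM (adjusted p = 0.757). Aplnr, the apelin receptor of veins, had the highest log2 fold change of the 22 genes, 1.57 (SE 0.42), at 30, 31 and 39 counts in the Hcy libraries and 5, 18 and 11 in the Veh libraries, and it did not pass in edgeR (adjusted p = 0.111) but did in DESeq2 (adjusted p = 0.0383). Lower in every Hcy library were the tip cell genes Esm1 (log2 fold change -0.18) and Plaur (-0.17) and the arterial gene Acvrl1 (-0.15), none of which passed. Over the 22 genes, 16 log2 fold changes were above 0 and 6 below, against 6854 and 7749 of all 14603 genes tested. The groups did not overlap for 9 genes higher in Hcy, against 10.8% of all genes tested, and for 3 lower, against 9.27%. The median log2 fold change was 0.15, against -0.02 over all genes tested.

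Each library was left out in turn to see how far single libraries carried the differences in the 10 genes. Jag1 and Rbpj stayed lower in Hcy, and Dll4, Notch4, Jag2, Hes1, Hey1 and Hey2 stayed higher, whichever library was left out, whereas the signs of Notch1 and Dll1 turned. Leaving out Veh replicate 3 gave the lowest value for Jag1, Notch4, Jag2, Rbpj, Hey1, Hes1 and Notch1. Without it, Jag1, Dll4 and Rbpj passed the test, and 6.67% of all genes did. Without any 1 of the Hcy libraries none of the 10 passed, and 0.557 to 0.663% of all genes did, against 2.34% with all 6 libraries. None of the 10 passed without Veh replicate 2 either (0.858% of all genes), and without Veh replicate 1 Dll4 alone did (1.05%).

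**Figure D4:**
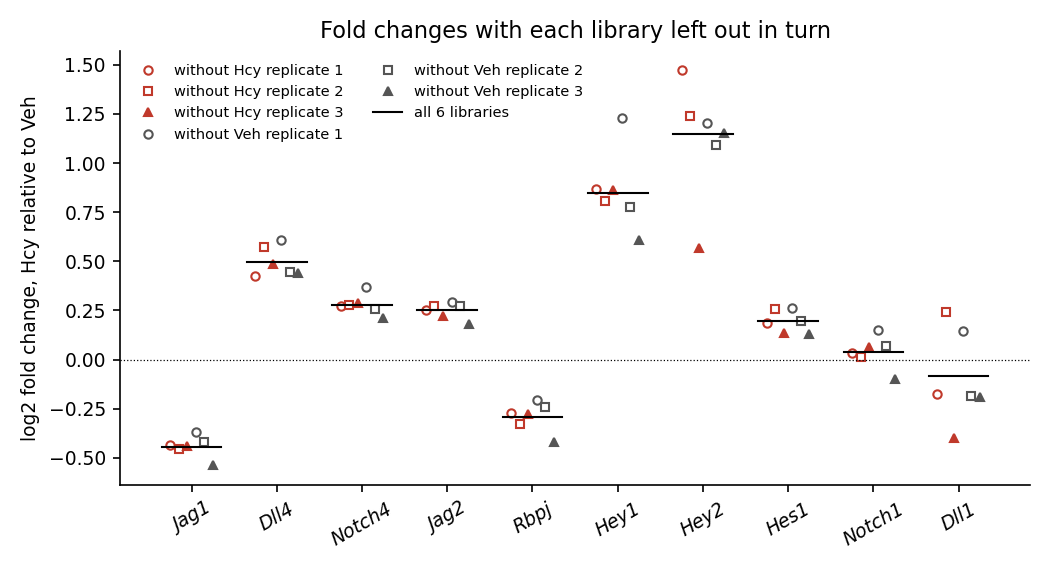
Log2 fold change of Hcy relative to Veh for the 10 genes, in order of adjusted p, with all 6 libraries (black line) and with 1 library left out (red for an Hcy library, grey for a Veh library, with circles, squares and filled triangles for replicates 1, 2 and 3). Values of Jag1 stay between -0.54 and -0.37 and those of Dll4 between 0.42 and 0.61, while Notch1 and Dll1 lie on both sides of 0.

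The genes whose levels followed those of Jag1 most closely over the 6 libraries, by Pearson's r of log2 CPM, were Tp53bp2 (r = 0.996), Ptpn21 (0.992), Rusc2 (0.991), Gaa (0.991) and Sema4a (0.989). Of the 14602 other genes tested, 117 had r above 0.95. The points share their libraries and depth, and the difference between the groups enters the correlation, so the values are a description. Of the 5, Rusc2 passed the test, at a log2 difference of -0.68 (adjusted p = 0.0136), and the others had -0.59 to -0.26.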

How the data were processed

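RNA-seq was analysed in 6 libraries of rBMECs, 3 Hcy and 3 Veh. The deposited table holds raw read counts for every gene, which the authors did not normalize, beside gene positions and lengths. The submitters' processing notes name fastp, HISAT2 2.2.1, StringTie 2.2.3, Cufflinks, featureCounts 2.0.6 and DESeq2 1.42.0, and the builds mRatBN7.2 and rn7. The table itself names no build, its positions reach 282724300 on chromosome 1, and no positions were compared between builds. Whether counting used the strand is not given in the sources used here. Libraries were made from poly(A) RNA, with an RNA integrity number of at least 7 in the labels. The deposited table of the authors' own comparison with DESeq2 holds normalized values, log2 fold changes and p-values and was not used.

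Genes with at least 10 counts over the 6 libraries were kept, scaled with TMM factors (0.977 to 1.02) and compared with edgeR 4.0.16 (quasi-likelihood test, R 4.3.3, limma 3.58.1), with group as the single term and Benjamini-Hochberg adjustment over the 14603 genes tested. CPM values are TMM-scaled. The SE is the log2 fold change divided by the square root of the F statistic. DESeq2 1.42.0, other scalings and filters, protein-coding genes only, a prior count of 2, a replicate block, an unadjusted p and leaving out each library were alternatives. The test was run on simulated counts first.

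The 10 members, the gene lists and the tests were chosen with earlier results of these data known. The genes named are the 10 members, a set list of pathway, arterial and venous genes and of markers, every other gene of the pathway, arterial, venous and tip cell lists with an adjusted p of at most 0.05, and the 5 genes most like the member with the smallest p. Hes2, Hes6, Neurl1b, Aph1b, Dtx3l, Dll3, Spen, Aplnr, Esm1, Plaur, Acvrl1, Tagln, Rgs5, Kcnj8, Abcc9, Syt1, Vwf, Kdr, Flt1, Tie1, Slc2a1, Tek and Mfsd2a were named after their values were seen. Protein sequences were not analysed here, and some results are not reported here.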

Additional observations from a re-analysis of the deposited data

How the results depend on the processing

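Over the 10 genes, no alternative gave a gene past both criteria, though Hey2 was not tested with filterByExpr. Jag1 alone passed the adjusted p with DESeq2's size factors, filterByExpr, protein-coding genes only and a prior count of 2. The number that passed was 2 (Dll4 and Jag1) with DESeq2 (4.14% of all genes tested), with no filter on low counts (2.48%) and with a replicate block (2.04%), 0 with library totals alone (2.37%), 6 at an unadjusted p (13.4% of all genes), and 0 to 3 with a library left out. For other pathway genes the number was 0 to 1 with a library left out (1, Spen, without Veh replicate 3) and 6 at an unadjusted p. For arterial, venous and tip cell genes it was 7 with DESeq2, 0 to 8 with a library left out and 11 at an unadjusted p. Over all genes, 71 were called, 109 with no filter, 374 at an unadjusted p and 39 to 112 with a library left out. An adjusted p of at most 0.05 was reached by 341 genes, 604 with DESeq2, 80 to 957 with a library left out (957 without Veh replicate 3 and 80 to 95 without an Hcy library), and an unadjusted one by 1955. The cause of these shifts was not tested. With a library left out, the log2 fold change ranged from -0.10 (without Veh replicate 3) to 0.15 for Notch1, from -0.40 to 0.24 for Dll1 (above 0 without Hcy replicate 2, and 0.14 without Veh replicate 1), from -0.024 (without Veh replicate 3) to 0.16 for Adam10 and from -0.17 to 0.091 (without Veh replicate 2) for Maml1. None of these passed in any fit.

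The libraries share replicate numbers. Deviations of same-numbered libraries correlated at 0.02, 0.17 and 0.06, and those of differently numbered libraries at -0.18 to 0.13. With 3 libraries in a group this is too little to tell whether the numbers mark pairs, and the main fit did not take them as pairs. With the replicate block, Dll4 had an adjusted p of 0.0290 and Jag1 0.0496, and 298 genes passed over all genes. Depth limits Hey1, Hey2 and Dll1, which had 4 to 23 counts per library.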
